A study of Sus scrofa with 6 samples.

Results

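Assembly of sequenced liver RNA yields loci that are listed without an Ensembl gene identifier, and some of them carry very high values. The 3343 loci described here were selected by 2 features of the deposited table, an empty Ensembl gene identifier and a mean of at least 15 FPKM over the 6 libraries, out of 98484 loci without an identifier and 121055 loci in all. The unit, FPKM, divides the number of sequenced fragments assigned to a locus by the length available to them and by the size of the library. The study set 3 IUGR pigs, which had a low birth weight after intrauterine growth restriction, against 3 Normal pigs of normal birth weight. All 6 were male pigs of the commercial PIC breed, kept in 1 environment, fasted before slaughter and sampled at 150 days of age, with 1 library of poly(A)-selected liver RNA per pig. By the study's methods every litter used gave 1 IUGR and 1 Normal piglet, but the sample labels do not say which of the sequenced pigs were littermates. In bulk liver, fewer cells of a type and less RNA per cell cannot be told apart. Of 7 hepatocyte markers, TTR, TF, APOA1, SERPINA1, FGB and APOB were present, at a summed 17906 to 21065 FPKM in IUGR and 15657 to 17820 FPKM in Normal libraries. ALB, the albumin gene, was listed at 0 in all libraries with the status HIDATA, which marks a locus holding too many fragments for an estimate, as was TF in IUGR 2, IUGR 3 and Normal 1, so these sums are not compared between groups. IUGR 2 and IUGR 3 stood closest to each other: the robust SD of their log2 ratio over the members longer than 300 bases was 0.18, against 0.37 to 0.52 for the other 14 pairs of libraries.

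A locus without an identifier can hold a gene missing from the annotation, an extension of a known gene beyond its annotated end, or a non-coding RNA. Several families of short non-coding RNA reside inside the introns of other genes. Small nucleolar RNAs (snoRNAs) guide chemical modification of ribosomal RNA, small Cajal body RNAs (scaRNAs) do the same for spliceosomal RNA, and RNase P and RNase MRP are RNA-containing enzymes that process transfer RNA and ribosomal RNA precursors. The mature forms of these RNAs carry no poly(A) tail. Span here is the length of the locus as the table lists it, on the Sscrofa10.2 build, so it is an upper bound on the length of the transcript, and 346 members shared their locus with at least 1 other row.

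Most members were short. The spans ran from 90 to 592222 bases, 2412 of the 3343 members (72.2%) were no longer than 300 bases, and 931 were longer. Of the loci without an identifier that had any value above 0, 621 were at most 117 bases long, and all 621 were members. The share that were members was 67.1% at 118 to 150 bases, 5.05% at 151 to 300 bases and 0.651% at 301 to 1000 bases, and was 2.03% above 1000 bases. The lowest FPKM above 0 that a library showed fell over the same range. Taken over loci within 2 bases of a given span, the median of this lowest value over the 6 libraries was 108 FPKM at 100 bases, 7.95 FPKM at 120 bases, 0.864 FPKM at 150 bases and 0.0806 FPKM at 300 bases. At the shortest spans, therefore, the smallest value that could be printed already exceeded the limit of 15 FPKM. The median level of the members was 5689 FPKM up to 97 bases, 271 FPKM at 98 to 117 bases, and 28.1 FPKM above 1000 bases. Just inside the limit, XLOC_018335, XLOC_004208 and XLOC_025704 had means of 15.0003, 15.0086 and 15.0098 FPKM, and just outside it XLOC_092900, XLOC_006742 and XLOC_001477 had means of 14.9962, 14.9885 and 14.983 FPKM.

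**Figure D1:**
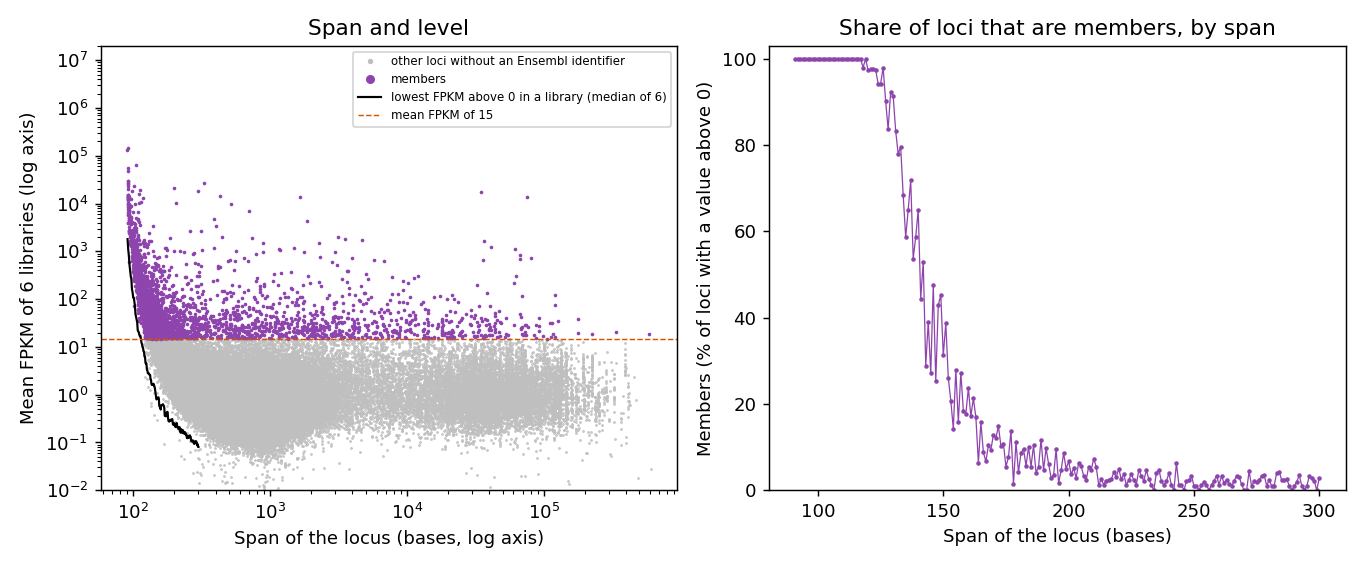
Left, mean FPKM of the 6 libraries against span for every locus without an Ensembl identifier and a value above 0 (both axes logarithmic, purple for the members, grey for the other loci), with the lowest FPKM above 0 in a library as a black line and the limit of 15 FPKM dashed. Right, the share of such loci that were members at each span, which was 100% up to 117 bases and 31.2% at 150 bases.

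The number of fragments behind a value could be read for the shortest loci. At spans of 91 to 97 bases every value in a library was a whole multiple, within 0.01, of a single FPKM, the value of 1 fragment. At 91 bases 1 fragment was worth 5290, 6787 and 6890 FPKM in IUGR 1, 2 and 3 and 7038, 4305 and 3981 FPKM in Normal 1, 2 and 3. At 97 bases it was worth 343, 444 and 450 FPKM in IUGR and 458, 278 and 265 FPKM in Normal libraries. The 93 members of these spans rested on 613, 447 and 499 fragments in the IUGR libraries and 445, 824 and 671 in the Normal libraries. Each member had a median of 30 fragments over all 6 libraries, with a range of 5 to 323. Nevertheless these 93 loci made up 36.2%, 32.8% and 37.0% of the summed FPKM of the whole table in IUGR 1, 2 and 3, and 32.8%, 41.6% and 35.6% in Normal 1, 2 and 3.

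Of the 10 members with the highest mean, 9 were at most 104 bases long. XLOC_009262, 92 bases on scaffold GL896548.1 (1963 to 2054), had the highest mean of the table's loci without an identifier, 148924 FPKM. It was listed at 45894.5, 236005 and 205096 FPKM in IUGR 1, 2 and 3 and at 243926, 62739.6 and 99885.6 FPKM in Normal 1, 2 and 3, which correspond to 19, 76 and 65 fragments in IUGR and 76, 32 and 55 in Normal libraries. The groups overlapped over their whole range, and the lowest value was that of IUGR 1. XLOC_041062, 91 bases on chromosome 13 (82284757 to 82284847) and 994 bases from CDV3, had 11, 11 and 4 fragments in IUGR and 8, 13 and 15 in Normal libraries, printed as 58189, 74657 and 27559 FPKM in IUGR and 56307, 55959 and 59709 FPKM in Normal libraries. Its order by fragments was not its order by FPKM, because 1 fragment was worth less in Normal 2 and Normal 3. XLOC_096590, XLOC_019333, XLOC_009208, XLOC_116477 and XLOC_072009, all of 91 or 92 bases with means of 25712 to 49027 FPKM, rested on 28 to 73 fragments over the 6 libraries. XLOC_114614 (90 bases, chromosome 9, mean 129524 FPKM) and XLOC_015038 (104 bases, chromosome 1, mean 65541.6 FPKM) fell outside the spans with whole steps. XLOC_015038 had 69307, 84435 and 87102 FPKM in IUGR and 65786, 40036 and 46584 FPKM in Normal libraries, so the IUGR values lay above all Normal values, but limma gave an adjusted p of 0.75 (Benjamini-Hochberg).

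The same steps appeared in some members of far greater span. In 13 members longer than 97 bases the values were whole multiples of the steps of a shorter span, and 5 of these lay on loci of more than 30 kb. XLOC_044473, listed on the 34798 bases of the MAPKAPK5 locus on chromosome 14 (42327956 to 42362753), had 5, 7 and 11 fragments in IUGR and 5, 4 and 8 in Normal libraries, and these gave a mean of 17824 FPKM. MAPKAPK5, a protein kinase gene whose row has the same coordinates, had a mean of 19.6 FPKM. In 4 members 1 fragment in 1 library made the whole value. XLOC_096747, named SNORD88, was listed at 7039 FPKM in Normal 1, and XLOC_020737, named ssc-mir-101-1, at 6890 FPKM in IUGR 3. XLOC_093386, named SNORD35, was listed at 4305 FPKM in Normal 2, and XLOC_019021, named SNORA70, at 685 FPKM in Normal 3. All 4 were listed at 0 in the other 5 libraries, and for XLOC_093386 the zeros of IUGR 1, Normal 1 and Normal 3 carried the status FAIL, so it was also the only member without the status OK throughout. Over all members, 2965 had a value above 0 in all 6 libraries, 378 were listed at 0 in at least 1 library, and in 17 more than 90% of the summed FPKM lay in 1 library. The longest of those 17 without whole steps was XLOC_007829, of 2391 bases on scaffold GL896154.1, with 113 FPKM in IUGR 1, 2.99 FPKM in Normal 2 and 0 in the others. XLOC_038083 on chromosome 13, whose reference name ENSSSCG00000027172 stands in the name column only, had 1829 FPKM in IUGR 3 and 1.28 to 9.97 FPKM in the other 5 libraries.

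Although the identifier field was empty, 91 of the 3343 members carried a reference name in the table, and 3252 carried none. The named set held 50 snoRNAs, 6 scaRNAs, 6 other structural RNAs, 5 microRNA precursors and 24 others. RNase P RNA (RNaseP_nuc, XLOC_101221, chromosome 7, 83579873 to 83580200, 147 bases from PARP2) was the highest, with 25385, 40678 and 21232 FPKM in IUGR and 37812, 15714 and 20887 FPKM in Normal libraries. RNase MRP RNA (XLOC_021090, chromosome 1, 264105054 to 264105311) had 3174, 3629 and 1165 FPKM in IUGR and 4154, 1226 and 2384 FPKM in Normal libraries. For both enzymes the groups overlapped, and the within-group range was wider than the difference of the means. The RNA component of telomerase (Telomerase-vert, XLOC_041678, chromosome 13), the template for the repeats at chromosome ends, averaged 525 ± 157 FPKM in IUGR and 434 ± 242 FPKM in Normal libraries (SD, n = 3 each). Each of these 3 RNAs was the only row at its locus, with spans of 258 to 430 bases.

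The scaRNAs SCARNA13 (XLOC_105005) and SCARNA6 (XLOC_056000) were also abundant. SCARNA13, 141 bases from GLRX5, averaged 1724 ± 474 FPKM in IUGR and 1214 ± 461 FPKM in Normal libraries, and SCARNA6, at the locus of ATG16L1, averaged 1167 ± 321 FPKM in IUGR and 1294 ± 782 FPKM in Normal libraries (SD, n = 3 each). U6atac (XLOC_021844, chromosome 1, 126 bases), a small nuclear RNA of the minor spliceosome, had 175, 256 and 286 FPKM in IUGR and 152, 138 and 97.7 FPKM in Normal libraries. The lowest IUGR value lay above the highest Normal value, with a log2 fold change of 0.87 ± 0.35 (SE) and an adjusted p of 0.67 (limma, Benjamini-Hochberg). The box H/ACA snoRNA SNORA62 (XLOC_038791) had 241, 391 and 378 FPKM in IUGR and 242, 146 and 152 FPKM in Normal libraries, where IUGR 1 and Normal 1 were nearly equal. Among the 50 snoRNA members the median of the mean levels was 63.3 FPKM, 43 shared their locus with another row, 27 lay at the locus of a row with an identifier such as the ribosomal protein genes RPS3 and RPS2, and 36 had a positive log2 fold change. Over all 91 named members 71.4% were positive, against 47.8% of all tested loci, a direction that depended on the scaling for the members as a whole. No named member passed the threshold, and the lowest adjusted p among the 91 was 0.52. The IUGR values were all above the Normal values in 5 of them (5.49%) and all below in 5 (5.49%), against 5.28% and 7.47% of all tested loci.

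**Figure D2:**
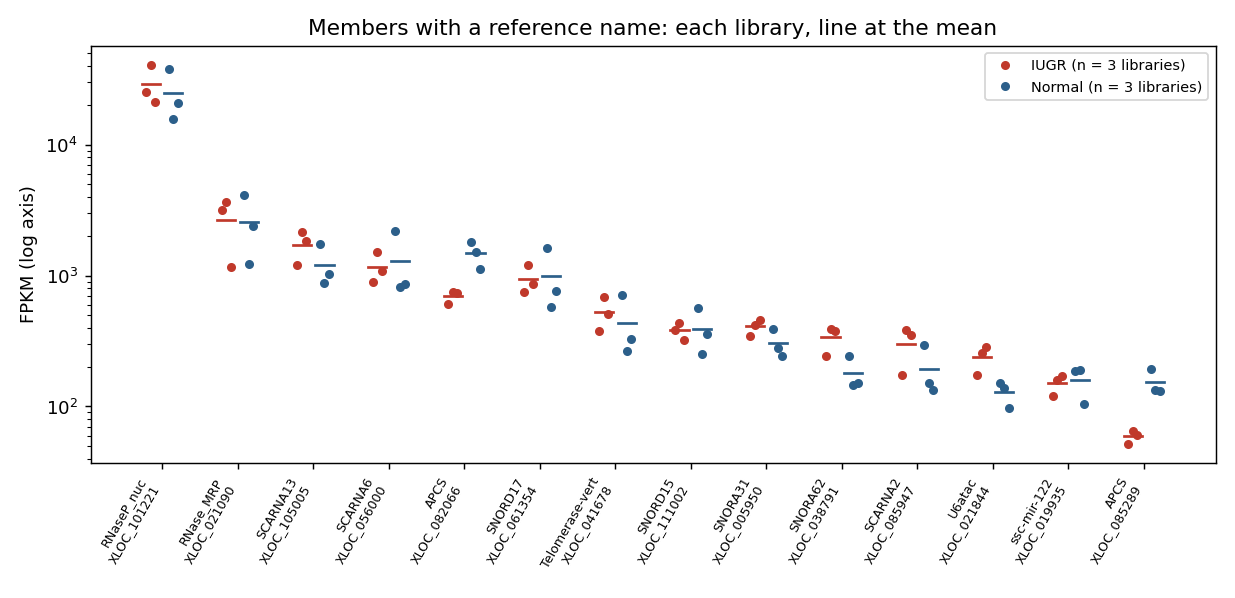
FPKM (logarithmic axis) of 14 members that carry a reference name, with 1 point per library, IUGR in red to the left of Normal in blue, and a line at each group's mean (n = 3 libraries). The groups overlap for RNase P, RNase MRP and telomerase RNA, while both APCS rows are lower in all 3 IUGR libraries.

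The protein-coding names in the set included an abundant liver product. APCS encodes serum amyloid P component, a pentraxin that hepatocytes secrete into plasma. The 2 members named APCS were listed at 1 locus on chromosome 4 (98900287 to 98901460). XLOC_082066 had 603, 744 and 732 FPKM in IUGR and 1813, 1512 and 1125 FPKM in Normal libraries, and XLOC_085289 had 51.6, 65.4 and 60.1 FPKM in IUGR and 194, 134 and 130 FPKM in Normal libraries. A row named APCS that has an identifier, elsewhere on chromosome 4, averaged 0.333 FPKM. The neighbouring member XLOC_085288, 450 bases long and unnamed, had 19.7, 18.4 and 20.3 FPKM in IUGR and 82.4, 48.6 and 55.1 FPKM in Normal libraries. In all 3 members every IUGR value was below every Normal value. Their log2 fold changes were -1.08 ± 0.36, -1.34 ± 0.31 and -1.59 ± 0.29 (SE), and none passed the threshold over all tested loci, with adjusted p of 0.63, 0.52 and 0.37 (limma, Benjamini-Hochberg). The locus that carries the name of ssc-mir-122, the precursor of the most abundant microRNA of hepatocytes, spanned 9404 bases on chromosome 1 (179913817 to 179923220) and held 3 members. The named row XLOC_019935 averaged 151 ± 26.4 FPKM in IUGR and 160 ± 47.9 FPKM in Normal libraries (SD, n = 3 each), and the groups overlapped.

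Long members with no name at all also reached high levels. Of the unnamed members longer than 300 bases, 618 were alone at their locus. XLOC_004145 on scaffold GL894237.1 (26657 to 27174) had 7378, 8989 and 8412 FPKM in IUGR and 15449, 7977 and 9888 FPKM in Normal libraries. It belonged to a run of 10 members between positions 18906 and 35625 of that scaffold, and the nearest row with an identifier, SMCR8, was 11587 bases away and averaged 2.33 FPKM. XLOC_106829 on chromosome 8 (78936364 to 78937066) had 5942, 7905 and 7221 FPKM in IUGR and 10004.1, 5325 and 6365 FPKM in Normal libraries. It stood 829 bases from an uncharacterized annotated row, ENSSSCG00000028901, and in the same stretch as FGB, the fibrinogen beta chain gene, whose row had a mean of 1146 FPKM. XLOC_001226, 505 bases from RARRES2 (chemerin, an adipokine also made in liver), averaged 3521 ± 987 FPKM in IUGR and 3352 ± 1767 FPKM in Normal libraries (SD, n = 3 each). In all 3 of these loci the groups overlapped.

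By chromosome, the members were most concentrated on sequence without a place in the assembly. Unplaced scaffolds held 829 of the 3343 members (24.8%), against 8321 of the 95141 other loci without an identifier (8.75%). Over 300 bases the share of loci that were members was 3.55% on scaffolds, against 0.379% (chromosome 18) to 1.53% (chromosome 6) on the placed chromosomes that held any member. The largest number on 1 chromosome was 282 on chromosome 13, followed by 230 on chromosome 1 and 215 on chromosome 2. None of the 21 loci on MT and the 36 on Y was a member.

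Distance was measured to the nearest row with an Ensembl identifier on the same chromosome or scaffold, with overlapping spans counted as 0. Such a row existed for 2867 members, and 476 members (14.2%) lay on scaffolds without one, against 4.32% of the other loci. The median distance was 12032 bases for the members and 29452 bases for the other loci, and 1336 members (46.6%) were within 10 kb, against 32.6% of the other loci. A distance cannot exceed the length of its scaffold, and unplaced scaffolds held 24.8% of the members and 8.75% of the other loci. The part of scaffold length in these distances was not tested. Within 1 kb lay 347 members (12.10%) and 11.95% of the other loci, and 83 members (2.90%) and 7.04% of the other loci overlapped such a row. Among loci longer than 300 bases, 25.5% of 797 members were within 1 kb, against 13.2% of 77685 other loci, and among loci of up to 300 bases the shares were 6.96% of 2070 members and 4.91% of 13348 other loci. All 83 members that overlapped a row with an identifier had exactly the coordinates of that row, so for them the distance says nothing of position within the locus. The farthest member, XLOC_076474 on chromosome 3, was 1472720 bases from APOB, and 3 of the 5 farthest lay together on chromosome 6, between positions 19754580 and 19822990 and 1249010 to 1317300 bases from GOT2. The longest listed span, 592222 bases, belonged to XLOC_018992 on chromosome 1, which carries the clone name CH242-58J12.2 and averaged 20.3 ± 2.59 FPKM in IUGR and 17.2 ± 3.46 FPKM in Normal libraries (SD, n = 3 each).

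**Figure D3:**
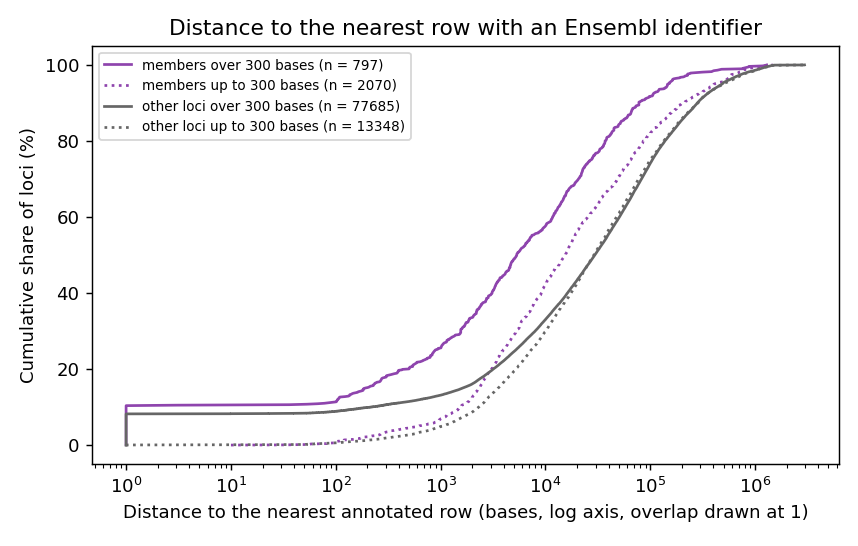
Cumulative share of loci (in percent) against the distance to the nearest row with an Ensembl identifier (logarithmic axis, overlap drawn at 1 base), for members in purple and other loci without an identifier in grey, split at a span of 300 bases. Within 1 kb lie 25.5% of the longer members and 13.2% of the other longer loci.

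Some of the nearest rows had no usable estimate. Of 35 rows with an identifier and a status other than OK, 13 had a member within 10 kb. ADH4, which encodes a liver alcohol dehydrogenase, was listed at 0 with the status FAIL in all 6 libraries, and it had more members within 10 kb than any other row, namely 10. XLOC_107775, 335 bases from it and 1147 bases long on chromosome 8 (130434592 to 130435738), had 163, 251 and 231 FPKM in IUGR and 242, 153 and 149 FPKM in Normal libraries. The other 9 had means of 26.2 to 1650 FPKM. PON1, a plasma esterase gene of the liver with the status FAIL in 5 libraries and 967 FPKM in Normal 2, had 3 members within 10 kb, with means of 16.2 to 70.2 FPKM. Because a status of FAIL prints 0, the level of such a member relative to its neighbour was not read.

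For IUGR against Normal, limma was run on log2(FPKM + 1) over the 95962 loci with a mean of at least 0.3 FPKM, which all 3343 members passed. At an adjusted p under 0.05 (Benjamini-Hochberg over all tested loci), 0 members were higher in IUGR, where 0.00208% of all tested loci were called, and 2 members were lower, where 0.00521% were called. At an unadjusted p under 0.05, 156 members (4.67%) were higher and 142 (4.25%) lower, against 2.85% and 4.49% of all tested loci. These counts moved with the scaling, to 105 higher and 229 lower with equal sums, 138 and 212 with equal medians of the loci with an identifier, 150 and 187 after quantile scaling, and 171 and 100 with equal medians of the loci without an identifier. The shares of all tested loci under these scalings are not given, so the rescaled counts are not compared with them. The median log2 fold change of all tested loci moved as well, to -0.13, -0.12, 0.01 and 0.06 in the same order. Leaving out a library gave 4 calls higher without Normal 2 or Normal 3, 2 without IUGR 1 and 1 without Normal 1, and 12 calls lower without IUGR 1, 4 without Normal 1 or Normal 3 and 0 without IUGR 2 or IUGR 3. Over all tested loci the calls lower moved as well. They were 19 without IUGR 1, 4 without Normal 1, 7 without Normal 3 and 0 without IUGR 2 or IUGR 3. The calls higher over all tested loci are not given for these fits. In 242 members (7.24%) all IUGR values exceeded all Normal values, against 5.28% of all tested loci, and in 135 (4.04%) all were below, against 7.47%. A positive log2 fold change was found for 1992 members (59.6%), against 47.8% of all tested loci. The median log2 fold change of the members was 0.12, with -0.01 over all tested loci and 0.15 over the 14727 tested loci with an identifier, but its sign depended on the scaling: it was -0.0588 with equal medians of the loci with an identifier, -0.0810 with equal sums, -0.00330 after quantile scaling and 0.26 with equal medians of the loci without an identifier. The 5 stellate and fibroblast markers summed to 213 to 275 FPKM in IUGR and 52.6 to 97.2 FPKM in Normal libraries, where COL3A1 was listed at 0 with a failed status in Normal 1, and the 3 neutrophil markers summed to 9.47 to 17.5 FPKM in IUGR and 2.30 to 6.41 FPKM in Normal libraries. The part of these cells in the results was not tested. The spread between pigs narrowed with span, with a median within-group SD of log2(FPKM + 1) of 1.06 up to 97 bases, 0.44 at 151 to 300 bases and 0.36 above 1000 bases.

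**Figure D4:**
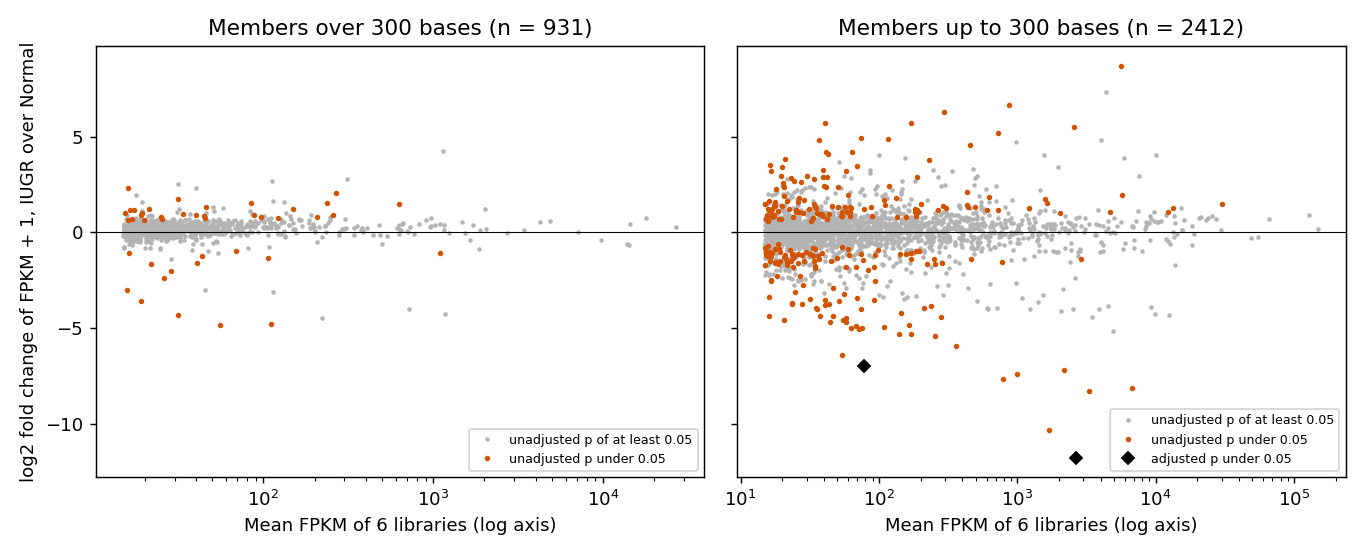
Log2 fold change of FPKM + 1, IUGR over Normal (3 libraries each), against the mean FPKM of the 6 libraries (logarithmic axis) for the 931 members over 300 bases and the 2412 members of up to 300 bases. Orange points have an unadjusted p under 0.05 and the 2 black diamonds an adjusted p under 0.05, both among the short members.

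The 2 members called lower were short, and the fragments could be read for 1 of them. XLOC_010148, 93 bases on scaffold JH118659.1, was listed at 0 in all 3 IUGR libraries and at 3703, 11290.1 and 1052 FPKM in Normal 1, 2 and 3, which were 2, 10 and 1 fragments (adjusted p 0.013 by limma). XLOC_073315, 109 bases on chromosome 2 (137568328 to 137568436), was listed at 0 in IUGR and at 47.3, 198 and 222 FPKM in Normal libraries (adjusted p 0.033). Averaged over the 6 libraries, zeros included, its values were 4.78 times the lowest FPKM above 0 among loci within 2 bases of this span. That lowest value falls with span. Among loci within 2 bases of 107 bases, its own 47.3 FPKM was the lowest above 0 in Normal 1. The next 2 by p, XLOC_023482 (114 bases) and XLOC_120964 (95 bases, with 11, 1 and 1 fragments in Normal 1, 2 and 3), were likewise listed at 0 in all IUGR libraries, with adjusted p of 0.075 and 0.10. Leaving out IUGR 2 or IUGR 3, averaging them, testing without a filter or adding the replicate number as a block ended both calls. Leaving out Normal 1 ended that of XLOC_010148, and leaving out Normal 2, Normal 3 or IUGR 1, no trend, equal sums, quantile scaling or equal medians of the loci with an identifier ended that of XLOC_073315. The 5 members with the lowest p in the other direction were 112 to 135 bases long. XLOC_035375 on chromosome 13 was listed at 10.3, 143 and 92.5 FPKM in IUGR 1, 2 and 3 and at 0 in all Normal libraries, and XLOC_078105, 110 bases from IGKJ1 on chromosome 3, had 92.3, 64.9 and 52.9 FPKM in IUGR and 13.5, 8.62 and 16.7 FPKM in Normal libraries. XLOC_009729, XLOC_051733 and XLOC_002643 completed this set, and adjusted p over the 5 was 0.33 to 0.40.

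Among the 931 members longer than 300 bases, a set formed after the values were seen, 0 passed the adjusted threshold, with 28 higher (3.01%) and 14 lower (1.504%) at an unadjusted p under 0.05, against 2.85% and 4.49% of all tested loci, so the share higher was near that of all loci. The lowest p among them was that of a member on chromosome 14 whose neighbours shared its pattern. XLOC_046230 (1286 bases, 115955604 to 115956889) had 25.2, 2.51 and 2.78 FPKM in IUGR and 113, 229 and 289 FPKM in Normal libraries, with a log2 fold change of -4.81 ± 0.78 (SE) and an adjusted p of 0.35 (limma). The uncharacterized annotated row beside it, ENSSSCG00000024537, had 61.4, 6.57 and 4.09 FPKM in IUGR and 162, 156 and 298 FPKM in Normal libraries. XLOC_046229 between them, of 107 bases, had 581 FPKM in IUGR 1 and 0 in IUGR 2 and 3, against 1494, 557 and 3373 FPKM in Normal libraries, so there the groups overlapped.

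On scaffold GL896193.2, IUGR 2 and IUGR 3 were likewise the lowest libraries in all 5 members, and the groups overlapped in 2 of them, XLOC_007903 and XLOC_007905. XLOC_007907 (263 bases) had 53.5, 4.19 and 2.42 FPKM in IUGR and 152, 370 and 413 FPKM in Normal libraries, with a log2 fold change of -4.86 ± 0.99 (SE, adjusted p 0.41 by limma). XLOC_007904 (596 bases) had 10.05, 0.195 and 0.329 FPKM in IUGR and 12.7, 50.1 and 41.5 FPKM in Normal libraries. The annotated row of this scaffold, ENSSSCG00000025801, had 23.7, 1.58 and 1.35 FPKM in IUGR and 123, 203 and 253 FPKM in Normal libraries (log2 fold change -5.13 ± 0.86, adjusted p 0.35). In each of these rows IUGR 1 was far above IUGR 2 and IUGR 3, and IUGR 2 and IUGR 3 were close to each other. Higher in IUGR were XLOC_042063, 3398 bases from the histidine-rich glycoprotein gene HRG, with 37.6, 58.2 and 48.2 FPKM in IUGR and 25.4, 9.40 and 10.1 FPKM in Normal libraries, and XLOC_008371 on scaffold GL896296.2, with 436, 311 and 299 FPKM in IUGR and 159, 141 and 74.8 FPKM in Normal libraries. Neither passed the threshold, with log2 fold changes of 1.74 ± 0.41 and 1.52 ± 0.40 (SE) and adjusted p of 0.53 and 0.56.

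Another stretch was carried by 1 library. On chromosome 5, XLOC_089826, XLOC_089846, XLOC_089910 and XLOC_089920, of 111 to 131 bases, were listed at 0 in all IUGR libraries and in Normal 1 and 2, and had 95.8, 132, 205 and 136 FPKM in Normal 3. They lay between positions 21488889 and 22491388, a region with olfactory receptor genes such as OR6C65 and OR6C76, whose rows had 3.62 and 2.29 FPKM in Normal 3 and at most 0.115 FPKM elsewhere. Of the 101 loci without an identifier in this region, 86 had over 90% of their summed FPKM in Normal 3. These values came from 1 library, and whether they reflect transcription of the region was not tested.

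**Figure D5:**
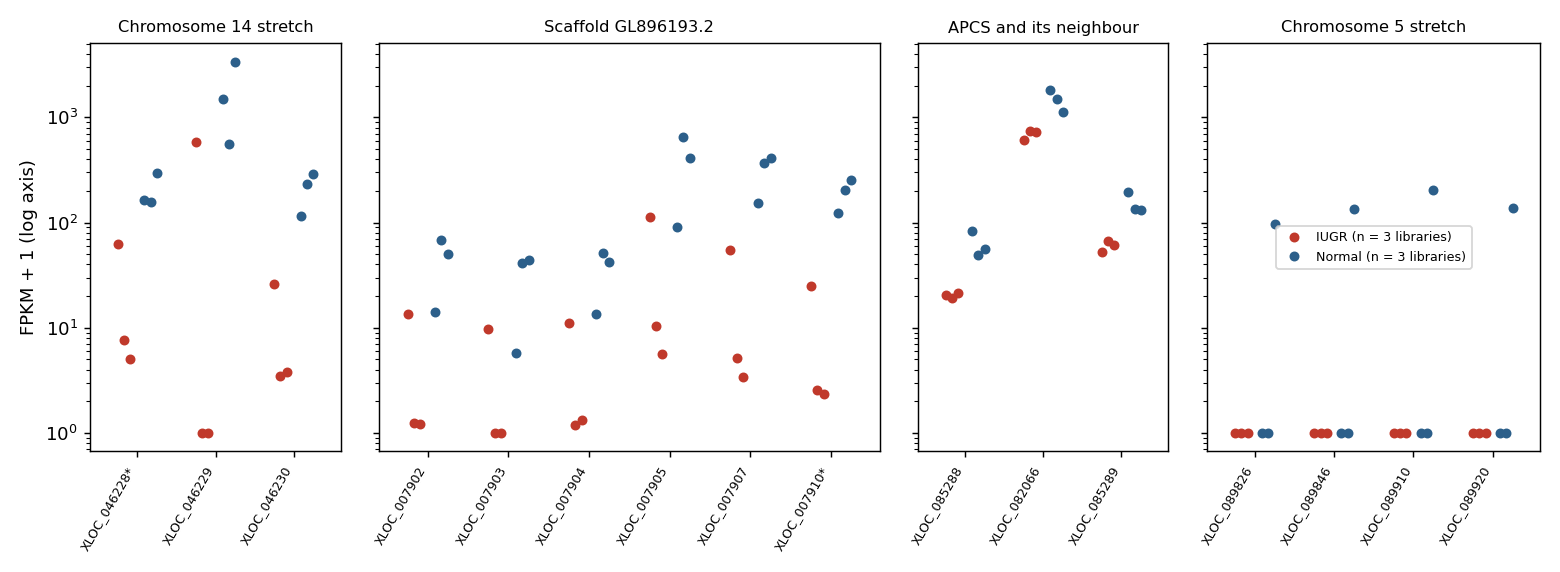
FPKM + 1 (logarithmic axis) of the rows in 4 stretches, with 1 point per library, IUGR in red to the left of Normal in blue, and an asterisk on rows with an Ensembl identifier. In the chromosome 14 stretch and on scaffold GL896193.2 the lowest points are IUGR 2 and IUGR 3, both APCS rows and XLOC_085288 are lower in all 3 IUGR libraries, and the chromosome 5 members are above 0 only in Normal 3.

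Members were finally set against their nearest annotated row, to compare the group differences of both. This was done only where that row lay within 10 kb and had a mean of at least 0.3 FPKM. Over 24844 pairs within 10 kb, in 1238 of which the locus was a member, the level relative to the neighbour was called for 0 members by limma, against 0.0121% of all pairs. At an unadjusted p under 0.05 there were 120 member pairs (9.69%), against 5.57% of all pairs, and the lowest adjusted p of a member pair was 0.079. Leaving out a library gave 4 called member pairs without Normal 2, IUGR 1 or IUGR 2, 2 without Normal 1 and 1 without Normal 3. The calls over all pairs are not given for these fits, so these counts are not read as particular to the members. For the 424 pairs with a member over 300 bases, 28 were at an unadjusted p under 0.05, and the median difference in log2 fold change was -0.04. The share of 28 in 424 lay nearer to the 5.57% of all pairs than to the 9.69% of all member pairs.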

How the data were processed

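Liver RNA of 3 IUGR and 3 Normal pigs was bound by oligo-dT and sequenced as read pairs of about 90 bases. The authors aligned reads with TopHat2 2.0.14 and Bowtie2 2.0.6, assembled them with Cufflinks 2.2.1 under the reference annotation, and deposited FPKM from Cuffdiff 2.1.1, with status words, on Sscrofa10.2. The paper's text names a later build of the pig genome. All coordinates and distances given here are those of the deposited values. No counts were used, so the precision of an FPKM is unknown beyond 97 bases. Starts were raised by 1 to count from 1. Members and lists were chosen with earlier results of these data known. IUGR and Normal were compared by limma 3.58.1 in R 4.3.3 (lmFit, eBayes with trend, two-sided) on log2(FPKM + 1), which understates changes of low loci. Named members were those called, the 10 highest, the 5 with the lowest p in each direction, the 5 longest and farthest, and those next to 15 FPKM; others named here (carrying a reference name, over 300 bases, or in the stretches) were chosen after their values were seen. The model was tested on simulated data. Alternatives changed the pseudocount, filter, scaling, variance model, libraries, span and member limit. Tables used pandas 2.3.3 and numpy 2.4.6 in Python 3.11.15, and figures matplotlib 3.10.9.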

Additional observations from a re-analysis of the deposited data

How the results depend on the processing

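Direction held in all 16 alternatives for each of the 20 members followed singly. These 20 were chosen from the same values, mostly for a low p. Some were listed at 0 in every library of 1 group, which the alternatives could hardly reverse. The constant direction is therefore no support for these differences. The count of members called higher in IUGR (0) became 1 with a pseudocount of 0.01 and 1 with IUGR 2 and IUGR 3 averaged, and ranged from 0 to 4 with a library left out, the 4 without Normal 2 or Normal 3. For the calls higher, counts over all tested loci are not given for these alternatives, so the member counts are not compared with them. The count called lower (2) became 4 and 6 with pseudocounts of 0.1 and 0.01, 1 with equal medians of loci with an identifier, 1 with equal sums, 1 after quantile scaling and 1 without a trend. It was 0 without a filter, 0 with IUGR 2 and IUGR 3 averaged, 0 for members of at least 500 bases and 0 for those over 300 bases (the last chosen after seeing the data), and ranged from 0 to 12 with a library left out, the 12 without IUGR 1 and 0 without IUGR 2 or IUGR 3. Over all tested loci the calls lower (5) became 7 and 8 with pseudocounts of 0.1 and 0.01, and 3 without a trend. They were 2 with equal medians of loci with an identifier, 2 with equal sums and 2 after quantile scaling. Without a filter they were 0, with IUGR 2 and IUGR 3 averaged 0, and with a library left out 0 to 19. The median log2 fold change of the members (0.12) was -0.0588 with equal medians of loci with an identifier, -0.0810 with equal sums, -0.00330 after quantile scaling and 0.26 with equal medians of loci without one, while that of all tested loci was -0.12, -0.13, 0.01 and 0.06, and leaving out a library gave 0.0377 (without Normal 3) to 0.178. Members near an annotated row (347 within 1 kb) were 83 by overlap and 1336 within 10 kb, 535 for a member limit of 10 FPKM and 202 for 30 FPKM. The count of member pairs called (0) was 1 with a pseudocount of 0.1 and 0 to 4 with a library left out, and the calls over all pairs are not given for these fits. With replicate number as a block, 0 members were called in each direction, but deviations of like-numbered libraries correlated at -0.24, -0.16 and -0.06 over the members, and the labels do not say that a number marks a litter, so whether like-numbered pigs were littermates is not known. The cause of these shifts was not tested.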

Other observations

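EIF2AK2 and IFIH1, both genes that interferon induces and that sense double-stranded RNA, had members carrying their names, and in both Normal 2 was the highest library. EIF2AK2 (XLOC_076124, chromosome 3, at the locus of the annotated row PKR) had 27.3, 39.2 and 33.4 FPKM in IUGR and 40.2, 62.0 and 20.8 FPKM in Normal libraries. PKR is an alias of EIF2AK2, so the gene also has a row with an identifier. The PKR row had 25.5, 33.0 and 32.1 FPKM in IUGR and 31.9, 54.0 and 16.0 FPKM in Normal libraries. Beyond this locus followed 7 unnamed members within 10 kb. In 6 of these 7 Normal 2 was again the highest library and in all 7 Normal 3 was the lowest, as in XLOC_076127 with 132, 146 and 152 FPKM in IUGR and 183, 297 and 76.4 FPKM in Normal libraries. IFIH1 (XLOC_054599, chromosome 15) had 14.1, 16.8 and 15.5 FPKM in IUGR and 17.1, 31.6 and 9.35 FPKM in Normal libraries. In these rows the Normal pigs enclosed the whole range of the IUGR pigs.

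Some members lay in runs. Runs of the other loci without an identifier were not counted, so the runs are not called particular to the members. With gaps of up to 10 kb, 1549 of the 3343 members fell into 539 runs of at least 2, and 391 of them into 62 runs of at least 5. The longest run held 16 members on scaffold GL893197.1 (11123 to 32725), with means of 17.01 to 138 FPKM and no row with an identifier on the scaffold.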
